A study of Mus musculus with 6 samples.

Results

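The genes described here are 10 genes of bone and cartilage differentiation, out of 24809 genes to which the transcripts of the table were summed. They were chosen by name: Alpl, Phospho1 and Enpp1 (mineralization enzymes), Spp1, Bglap and Ibsp (bone matrix proteins), Sp7 (osteoblast transcription factor) and Sox9, Sox5 and Sox6 (cartilage transcription factors). Earlier results of these data were known when these genes and the gene lists below were chosen, so counts of calls among them are description only. RNA was sequenced from C2C12, a mouse myoblast line, in control cells (3 libraries) and in cells overexpressing the homeobox gene Msx1 (3 libraries). The deposited table heads the control columns with the word vector. The labels give neither the promoter driving Msx1, nor whether the cells were a clone or a pool, nor the medium or density at harvest, and it is not stated that replicates were grown apart. The p-values therefore rest on the variation among these 6 libraries, which may be technical.

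C2C12 cells form myotubes when serum is withdrawn, and they are known to turn to an osteoblast-like fate when treated with a bone morphogenetic protein. Matrix mineralizes when phosphate outweighs pyrophosphate: Enpp1 makes pyrophosphate, which blocks mineral growth, and tissue-nonspecific alkaline phosphatase (the product of Alpl) breaks it down, while Phospho1 releases phosphate inside matrix vesicles. Osteoblasts need the transcription factors Runx2 and Sp7 and make the matrix proteins osteopontin (Spp1), bone sialoprotein (Ibsp) and osteocalcin (Bglap). Cartilage formation needs Sox9, with Sox5 and Sox6 as its partners.

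Of the 10 genes, Alpl, Phospho1 and Bglap were higher and Spp1 and Enpp1 lower in Msx1 cells, and Sox9 did not pass the test. The increase of Alpl was about 102-fold, the decreases of Enpp1 and Spp1 3.07-fold and 2.43-fold, and the rise of Phospho1 1.77-fold. The rise of Bglap was not found when it was summed with its copies Bglap2 and Bglap3. Bglap2 is near-identical to it, and the sequence of Bglap3 was not compared. Sp7, Sox5 and Sox6 were below the minimum for testing, and Ibsp was listed at 0 in every library. Levels are FPKM, fragment numbers scaled to transcript length and library size, given as mean ± SD. Changes are differences of log2(FPKM + 1), Msx1 minus control, tested with limma and adjusted by the Benjamini-Hochberg method over the 12371 genes whose mean reached 0.5 FPKM, where a gene was called at an adjusted p under 0.05. This scale understates the change of low genes.

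Msx1 itself stood at 7.99, 7.13 and 7.54 FPKM in the control libraries against 1004, 943.7 and 912 FPKM under overexpression, as the labels say, and RNA of the introduced gene and of the locus cannot be told apart. Summed FPKM lay between 390439 and 441835 per library. A rough estimate of depth from the lowest values, searched only between 10 and 30 M fragments, gave 18.4 to 24.15 M fragments. Depths outside that window were not tried. Of 12 skeletal myoblast markers 10 were tested, with 4 called higher, 3 lower and 3 not called, and summed levels of 262.7 to 268 FPKM in control and 240.5 to 250.5 FPKM in Msx1 libraries. The largest changes were those of Mymk, needed for myoblast fusion, which rose from 0.888 ± 0.307 to 6.85 ± 0.483 FPKM (log2 change 2.07), and of the myogenic factor gene Myf5, which fell from 9.01 ± 0.396 to 1.64 ± 0.0968 FPKM (log2 change -1.92; n = 3 each). Pax7, Chrnb1 and Chrng were also higher and Des and Chrna1 lower, by less than 1 on the log2 scale. The myogenic factor gene Myod1, at 23.3 ± 0.924 and 21.4 ± 0.677 FPKM, was not called, and Mstn was listed at 0 throughout. Of 12371 genes tested, 54.4% were called, 22.0% higher and 32.4% lower. Higher genes made up 40.4% of these calls. When libraries were scaled by the median of ratios that share was 51.2%, and when totals were made equal leaving out Msx1 it was 55.4%.

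The promoters of the genes with the largest changes are shown because Alpl was assigned to different transcripts in the 2 groups and has 2 annotated starts, and because Spp1 and Enpp1 moved the opposite way. Each line gives the 250 bases before a start, from RefSeq on GRCm38.p6. Capitals mark a match to a searched motif on either strand: the homeodomain motif TAATTG, the RUNX motif TGTGGT, the TCF/LEF motif CTTTGA or the SOX motif ACAAAG. Only matches to all letters of a motif were searched, and shorter forms such as TAAT are not marked.
Alpl upstream start, chr4:137796385-137796634, minus strand: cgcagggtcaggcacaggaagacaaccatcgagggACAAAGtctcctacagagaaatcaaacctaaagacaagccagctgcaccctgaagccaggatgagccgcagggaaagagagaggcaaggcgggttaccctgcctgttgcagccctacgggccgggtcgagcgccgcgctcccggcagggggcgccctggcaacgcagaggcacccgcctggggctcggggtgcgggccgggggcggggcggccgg
Alpl downstream start, chr4:137766476-137766725, minus strand: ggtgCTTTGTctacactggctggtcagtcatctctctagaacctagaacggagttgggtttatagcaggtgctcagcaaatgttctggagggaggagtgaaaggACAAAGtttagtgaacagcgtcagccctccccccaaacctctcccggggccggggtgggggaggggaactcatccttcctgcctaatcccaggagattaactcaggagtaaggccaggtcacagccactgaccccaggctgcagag
Spp1, chr5:104434861-104435110, plus strand: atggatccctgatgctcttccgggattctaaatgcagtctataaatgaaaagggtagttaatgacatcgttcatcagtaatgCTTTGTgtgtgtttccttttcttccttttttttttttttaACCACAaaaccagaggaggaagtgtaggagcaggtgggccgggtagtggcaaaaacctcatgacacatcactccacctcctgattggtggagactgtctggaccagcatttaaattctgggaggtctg
Enpp1, chr10:24712160-24712409, minus strand: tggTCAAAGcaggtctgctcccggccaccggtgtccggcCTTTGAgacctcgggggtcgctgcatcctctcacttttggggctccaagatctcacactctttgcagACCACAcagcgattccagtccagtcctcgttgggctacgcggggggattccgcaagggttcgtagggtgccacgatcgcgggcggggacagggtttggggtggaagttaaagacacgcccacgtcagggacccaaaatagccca
The Alpl starts lie 29909 bases apart, and the upstream window had a GC content of 68.4% against 56% in the downstream window. Spp1 has a second annotated start 1081 bases downstream, whose window is not printed. TAATTG was found in neither window of Alpl or Spp1 nor in that of Enpp1, in these bases or in the 50 that follow the start. Among the 8 of the 10 genes with a promoter in the table, TAATTG was found for Bglap (89 bases before the start) and Ibsp (198 bases before it), and 8% of 32851 mouse promoter windows of 300 bases held it. The RUNX motif was found in 1 of the 2 Spp1 windows (128 bases before the upstream start) and in those of Enpp1 (144) and Bglap (132), against 16.8% of all windows. The TCF/LEF motif was found in those of Enpp1 (211 and 247 bases before the start) and Phospho1 (66), against 16% of all windows. The SOX motif was found in both Alpl windows (215 bases before the upstream start, 146 and 246 before the downstream start) and in both Spp1 windows (168 bases before the upstream start and 243 before the downstream one), against 18.7% of all windows. Sox6, with 6 of the 15 windows, held the SOX motif in 5, the TCF/LEF motif in 3 and the RUNX motif in 2. The only Sox5 window held none of the 4 motifs. It belongs to an internal start (143947106, minus strand) of a gene that extends to 144782287, and the region before that far end was not searched. A match describes letters and not a bound site.

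The mineralization enzymes changed in both directions. Alpl (chromosome 4, 137741731 to 137796384) read 0.776, 0.326 and 0.727 FPKM in the control libraries and 62.97, 59.89 and 64.0 FPKM in the Msx1 libraries. Every Msx1 library was far above every control library, and all control libraries were below 1 FPKM. The means were 0.609 ± 0.246 and 62.3 ± 2.14 FPKM (n = 3 each), a log2 change of 5.31 (SE 0.11, limma adjusted p = 2.99e-08) and the fifth largest increase of all genes tested (rank 5). By level, Alpl stood at rank 11752 to 12776 among all genes in the control libraries and at rank 1124 to 1205 in the Msx1 libraries.

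**Figure D1:**
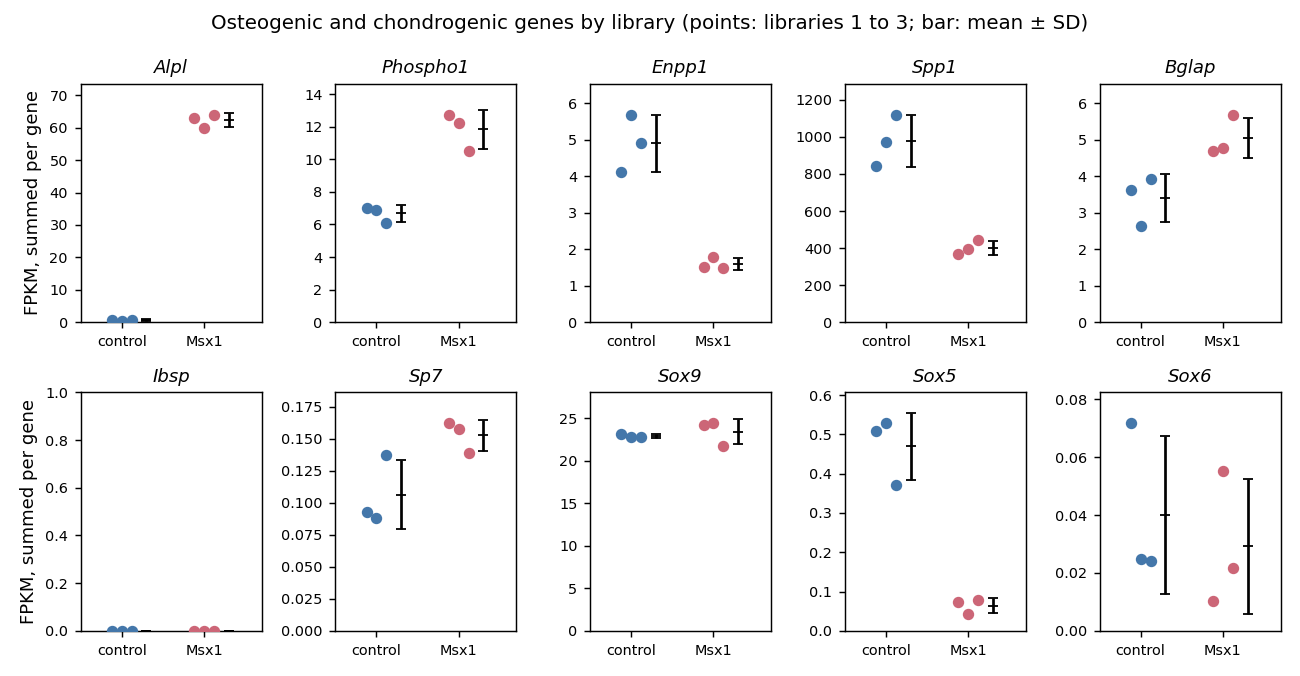
FPKM summed per gene (vertical axes, linear and starting at 0, a separate scale for each gene) in the control and Msx1 libraries; points are libraries, and the bar beside them is the mean with its SD (n = 3 each). Alpl, Phospho1, Bglap and, narrowly, Sp7 are higher in every Msx1 library, Ibsp is at 0, Spp1, Enpp1 and Sox5 are lower in every one, and Sox9 and Sox6 overlap.

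The deposited table splits Alpl into 2 RefSeq transcripts. Transcript NM_007431 was listed at 0 in all 3 control libraries and read 62.97, 59.87 and 62.3 FPKM with Msx1. Transcript NM_001287172 held all of the control signal, at 0.776, 0.326 and 0.727 FPKM, and stood at 0, 0.0248 and 1.68 FPKM in the Msx1 libraries. The control signal and the Msx1 signal were thus assigned to different transcripts, with 97.4% to 100% of the Msx1 signal on NM_007431. Alpl is known to have alternative first exons that precede the same coding exons, so reads that fall elsewhere are divided between its transcripts by estimation. The promoter table does not pair starts with transcripts, and whether the start used differs between the groups was not tested.

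Phospho1 (chromosome 11, 95824500 to 95832140), which splits phosphocholine and phosphoethanolamine, read 7.03, 6.91 and 6.098 FPKM in control and 12.7, 12.3 and 10.5 FPKM in Msx1 libraries. The groups did not overlap, and the means of 6.68 ± 0.507 and 11.8 ± 1.17 FPKM (n = 3 each) gave a log2 change of 0.74 (SE 0.09, limma adjusted p = 1.98e-04). Its last 2069 bases overlap Abi3, annotated as converging on it, and without a stated strand setting reads of the overlap cannot be told apart. Abi3 was low, with means of 0.0692 ± 0.0231 and 0.167 ± 0.0275 FPKM (control and Msx1, n = 3 each).

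Enpp1 (chromosome 10, 24637914 to 24712159) read 4.11, 5.68 and 4.91 FPKM in control and 1.52, 1.78 and 1.49 FPKM in Msx1 libraries. All Msx1 libraries were below all control libraries. The means were 4.90 ± 0.784 and 1.60 ± 0.157 FPKM (n = 3 each), a log2 change of -1.18 (SE 0.11, limma adjusted p = 4.73e-05). Its main transcript NM_008813 held 74.6% to 93.5% of the gene's FPKM in control and 66.2% to 75.2% in Msx1 libraries. Its own levels were 3.42, 4.24 and 4.59 FPKM without and 1.14, 1.18 and 1.007 FPKM with Msx1.

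**Figure D2:**
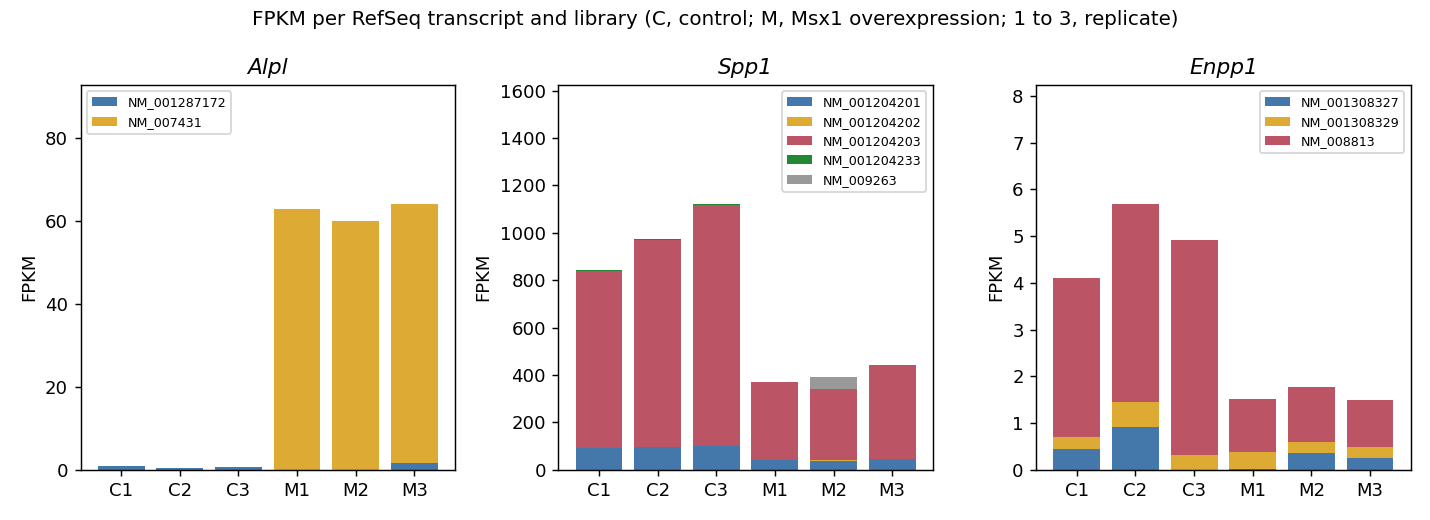
FPKM per RefSeq transcript (stacked bars, linear axes) of Alpl, Spp1 and Enpp1 in each library, with C1 to C3 for control and M1 to M3 for Msx1 overexpression. The Alpl bars of the Msx1 libraries, near 62 FPKM, consist almost wholly of NM_007431, which is at 0 in control, while Spp1 and Enpp1 keep the same leading transcript.

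Since Enpp1 makes the pyrophosphate that alkaline phosphatase breaks down, the ratio of these transcripts within a library is given as a description. Alpl over Enpp1 was 0.189, 0.0575 and 0.148 in control and 41.5, 33.7 and 42.8 in Msx1 libraries, so that Enpp1 exceeded Alpl in every control library and Alpl exceeded Enpp1 in every Msx1 library. Phospho1 over Enpp1 went from 1.71, 1.22 and 1.24 to 8.40, 6.90 and 7.04, with Phospho1 the higher of the pair in all 6 libraries. These are ratios of transcript levels, and enzyme activity or mineral was not measured in the files used here.

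**Figure D3:**
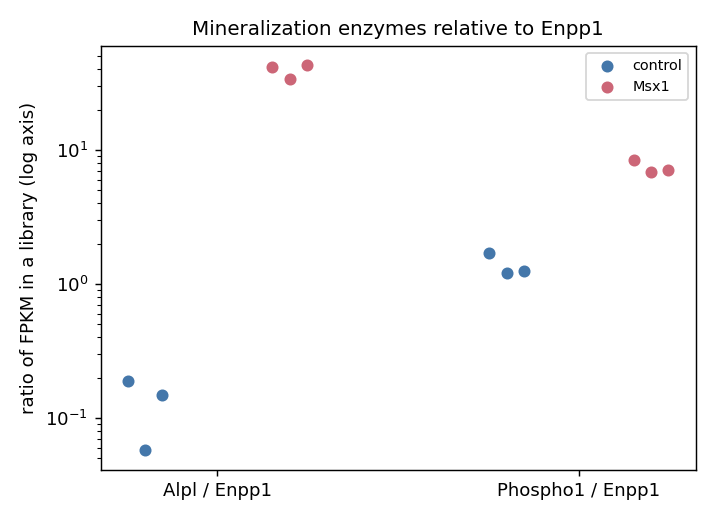
Ratio of FPKM within each library on a log axis, Alpl over Enpp1 and Phospho1 over Enpp1; points are the 3 libraries of each group. Alpl over Enpp1 lies below 0.2 in control and above 33 in Msx1 libraries, and the groups are apart for Phospho1 over Enpp1 as well.

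Among the bone matrix genes, Spp1 was abundant and fell. Spp1 (chromosome 5, 104435111 to 104441053), whose product osteopontin binds integrins and mineral and is also secreted by many cells outside bone, read 841, 972 and 1120 FPKM in control and 369.7, 393 and 443 FPKM in Msx1 libraries. The lowest control library was above the highest Msx1 library. The means were 978 ± 139.5 and 402 ± 37.5 FPKM (n = 3 each), a log2 change of -1.27 (SE 0.12, limma adjusted p = 5.2e-05). Spp1 ranked 30 to 55 by level in control libraries and 109 to 143 in Msx1 libraries, and remained the most abundant of the 10 genes in each. Its transcript NM_001204203 held 76.1% to 91% of its FPKM in every library. Msx1 replicate 2 alone had FPKM on NM_009263 (53.1 FPKM, 13.5% of the gene), which the other 5 libraries list at 0.

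Bglap (chromosome 3, 88383495 to 88384466) read 3.63, 2.65 and 3.93 FPKM in control and 4.70, 4.77 and 5.69 FPKM in Msx1 libraries. The groups did not overlap, and the log2 change was 0.47 (SE 0.12, limma adjusted p = 0.0132). Bglap has a neighbouring copy, Bglap2, whose transcript is 98.6% identical over 440 aligned bases, so the division of reads between them is uncertain. Bglap2 read 15, 15.3 and 15.8 FPKM in control and 14.4, 14.0 and 13.0 FPKM in Msx1 libraries, the opposite direction, and was not called (log2 change -0.14, limma adjusted p = 0.0644). The sum of Bglap, Bglap2 and Bglap3 was 18.8, 18.0 and 19.8 FPKM in control and 19.5, 18.8 and 19.3 FPKM in Msx1 libraries. These sums overlapped, and with the copies summed the log2 change was 0.03 (SE 0.05, limma adjusted p = 0.692), a setting chosen after seeing the data. Bglap made up 14.7% to 19.9% of that sum in control and 24.1% to 29.5% in Msx1 libraries.

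Ibsp (chromosome 5, 104299287 to 104311472), a marker of mature osteoblasts, was listed at 0 FPKM in all 6 libraries. Sp7 (chromosome 15, 102356603 to 102367035), also called osterix, read 0.093, 0.0884 and 0.137 FPKM in control and 0.162, 0.158 and 0.139 FPKM in Msx1 libraries. The Sp7 values of the groups were apart by a narrow margin, between 0.137 and 0.139 FPKM. With no filter on low values the limma adjusted p of Sp7 was 0.105.

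Among the cartilage transcription factors, Sox9 was well expressed and was not called, while Sox5 and Sox6 were low. Sox9 (chromosome 11, 112782210 to 112787757) read 23.2, 22.8 and 22.8 FPKM in control and 24.2, 24.4 and 21.8 FPKM in Msx1 libraries, with the lowest value in an Msx1 library. Its log2 change was 0.03 (SE 0.06, limma adjusted p = 0.711), from 23.0 ± 0.235 to 23.4 ± 1.47 FPKM (n = 3 each). Sox9 made up 97.6% to 99.7% of the summed FPKM of Sox9, Sox5 and Sox6 in the 6 libraries. Sox5 (chromosome 6, 143828425 to 144782287) read 0.509, 0.528 and 0.371 FPKM in control and 0.0731, 0.0417 and 0.0778 FPKM in Msx1 libraries. Its groups did not overlap, and the control mean of 0.469 ± 0.0854 FPKM was 7.31 times the Msx1 mean of 0.0642 ± 0.0196 FPKM (n = 3 each). With a mean of 0.267 FPKM over all libraries Sox5 was below the minimum for testing, and with no filter on low values it had a log2 change of -0.46 (SE 0.05, limma adjusted p = 5.48e-04). Sox6 (chromosome 7, 115470872 to 116040776) lay between 0.0104 and 0.0716 FPKM with overlapping groups, and gave a limma adjusted p of 0.703 with no filter.

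Because the genes were chosen with earlier results of these data known, the counts that follow are description and not evidence about the set. Of the 6 genes tested, 5 were called, against 54.4% of all genes tested. They were 3 called higher (22.0% of all genes tested) and 2 lower (32.4%). Alpl rose by more than 1 on the log2 scale, as did 4.17% of all genes tested, and Spp1 and Enpp1 fell by more than 1, as did 3.35%. The groups did not overlap for those 5 genes, nor for 62.3% of all genes tested. The median log2 change of the 6 tested genes was 0.25, beside -0.07 over all genes tested. That median lies between Bglap (0.47) and Sox9 (0.03), so it depends on the uncertain rise of Bglap. With the Bglap copies summed, 2 of the 10 genes were called higher, and the groups overlapped for that sum.

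Other genes of osteoblasts and bone matrix changed in both directions. Of 39 listed genes, 24 were tested, 11 were called higher, 5 lower and 8 were not called, with a median log2 change of 0.14. Of all genes tested, 22.0% were called higher and 32.4% lower. The osteoblast master regulator Runx2 read 13.5, 15.8 and 14.4 FPKM in control and 18.7, 17.9 and 17.3 FPKM in Msx1 libraries (log2 change 0.29, SE 0.07, limma adjusted p = 0.00801). Bmp7, a bone morphogenetic protein, was listed at 0 in all control libraries and read 18.6, 19.5 and 20.7 FPKM in Msx1 libraries (log2 change 4.36). The homeobox gene Dlx3 rose from 2.71 ± 0.137 to 10.1 ± 0.344 FPKM (n = 3 each), and the small proteoglycan gene Omd (osteomodulin) from 40.9 ± 10.6 to 89.5 ± 8.06 FPKM. Dlx5, another homeobox gene of osteoblasts, was listed at 0 in every library. Phex, a membrane endopeptidase needed for phosphate balance in bone, fell from 2.44 ± 0.763 to 0.112 ± 0.0249 FPKM, and the vitamin D receptor gene Vdr from 43.2 ± 0.941 to 23.7 ± 0.284 FPKM. The collagen gene Col1a1 rose from 22.8 ± 1.21 to 27.2 ± 1.83 FPKM (log2 change 0.24, SE 0.07, limma adjusted p = 0.0153). Col1a2, which encodes the other chain of type I collagen, fell from 397.5 ± 12.1 to 271.5 ± 11.9 FPKM (log2 change -0.55, SE 0.06, limma adjusted p = 1.41e-04), and Col5a2 from 327.6 ± 22.5 to 220.3 ± 1.09 FPKM (log2 change -0.57). The 15 genes below the minimum included Dmp1 and Ifitm5, and 7 genes, among them Mepe, Dspp, Sost and Bmp2, were listed at 0 throughout.

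Genes that handle phosphate and pyrophosphate moved in both directions. Of 25 entries 23 were in the table and 17 were tested, with 6 called higher, 7 lower and 4 not called (median log2 change -0.06). The shares over all genes tested were 22.0% higher and 32.4% lower. Ank, which is needed for the release of pyrophosphate from cells, read 162.5 ± 5.43 FPKM without and 320.3 ± 8.89 FPKM with Msx1 (n = 3 each) and was called higher (log2 change 0.97, SE 0.05, limma adjusted p = 3.38e-06), the opposite direction to Enpp1. Mgp, encoding the calcification inhibitor matrix Gla protein, read 392.5, 407 and 409 FPKM in control and 1857, 1824 and 1979 FPKM in Msx1 libraries (log2 change 2.23). Nt5e, which turns extracellular AMP into adenosine and phosphate, rose from 3.28 ± 0.695 to 33.2 ± 0.982 FPKM, and Fam20c, the kinase of secreted proteins such as osteopontin, from 29.0 ± 0.40 to 60.1 ± 1.06 FPKM. Enpp3, a relative of Enpp1, fell from 5.18 ± 0.536 to 0.313 ± 0.111 FPKM. Stc1, encoding the secreted hormone stanniocalcin, fell from 23.6 ± 4.86 to 3.80 ± 0.229 FPKM.

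Of 46 entries in a list of cartilage and chondrocyte genes 45 were in the table, and 24 of these were below the minimum. The aggrecan gene Acan reached at most 0.0129 FPKM, and the collagen gene Col2a1, which defines cartilage matrix and is a Sox9 target, had means of 0.282 ± 0.0641 and 0.153 ± 0.0443 FPKM (control and Msx1, n = 3 each). Of the 21 tested, 6 were called higher, 9 lower and 6 were not called, with a median log2 change of -0.13. The shares for this list and for the Sox genes below stand beside 22.0% higher and 32.4% lower over all genes tested. The forkhead factor gene Foxa2 rose from 2.46 ± 0.167 to 10.3 ± 0.933 FPKM and the collagen gene Col9a3 from 0.442 ± 0.147 to 2.45 ± 0.197 FPKM. The matrilin gene Matn2 fell from 46.0 ± 4.59 to 19.3 ± 0.879 FPKM. Papss2, which makes the sulfate donor for cartilage proteoglycans, fell from 1.74 ± 0.231 to 0.487 ± 0.0889 FPKM, and the sulfate transporter gene Slc26a2 from 9.65 ± 1.33 to 5.38 ± 0.485 FPKM. Among 9 other Sox genes of subgroups C to F, 5 were tested, 3 were called higher and 0 lower. These were Sox4, from 42.8 ± 1.48 to 53.0 ± 2.25 FPKM, Sox8, from 0.324 ± 0.0583 to 1.30 ± 0.0828 FPKM, and Sox18, from 0.57 ± 0.162 to 0.934 ± 0.0471 FPKM.

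Some listed genes reached the minimum for testing through 1 group alone. These were Bmp7, Pdgfb, Col9a3, Comp and Sox8 through the Msx1 libraries, and Phex, Enpp3, Papss2 and the adipocyte marker Fabp4 through the control libraries. Such genes could hardly pass the minimum without a difference. Their calls are included in the list counts, where they carry no weight as evidence of a change of the list.

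**Figure D4:**
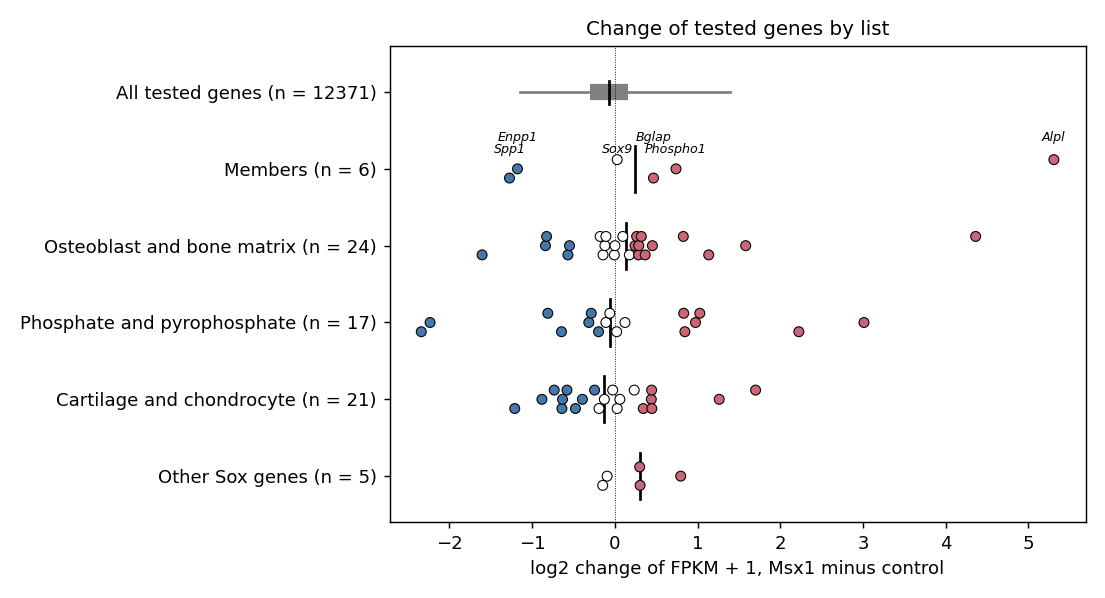
Log2 change of FPKM + 1, Msx1 minus control, of tested genes in each list; red points were called higher, blue points lower and white points not called, black ticks are medians, and the grey bar and line hold the middle 50% and the middle 95% of all 12371 genes tested. Alpl lies at 5.31, beyond every other gene shown, while medians of the larger lists lie between -0.13 and 0.14.

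Markers of other cell types were followed beside these results. Of 6 tendon markers 3 were tested, with Scx higher (78.2 ± 11.5 to 129.8 ± 8.79 FPKM) and Egr1 lower (152.7 ± 25.5 to 27.7 ± 0.0723 FPKM). Mkx was not called (means of 4.04 and 4.53 FPKM). Summed levels were 201 to 256 FPKM in control and 152 to 168 FPKM in Msx1 libraries. Egr1, also an immediate early gene, made up most of the control sum, and the fall of the sum was that of Egr1. Tnmd was at most 0.0316 FPKM and Kera at 0. Of 8 adipocyte markers 4 were tested, with 3 lower and 0 higher, summed levels of 36.6 to 43.6 and 28.4 to 29.0 FPKM, and Plin1, Cidec and Lep at 0, while Adipoq, below the minimum, was listed at 0 in control and read 0.27, 0.82 and 0.59 FPKM in Msx1 libraries. Of 12 blood, immune and endothelial markers 1 was tested, Cd68, which was lower (3.00 ± 0.366 to 1.05 ± 0.114 FPKM) and made up most of the control sum. Their summed levels were 3.20 to 4.06 and 1.78 to 2.48 FPKM, and Ptprc and Adgre1, the defining leukocyte and macrophage genes, were at 0. The endothelial genes Cdh5 (means of 0.118 and 0.555 FPKM) and Kdr (0.00927 and 0.114 FPKM) were below the minimum, with every Msx1 library above every control library. The endothelial gene Pecam1 had the lower mean with Msx1 (0.0603 and 0.0220 FPKM), with overlapping groups. Emcn was listed at 0 except in Msx1 replicate 2 (0.0584 FPKM). Of 7 epithelial markers 1 was tested, Krt14, which was lower, with summed levels of 15.5 to 19.7 and 9.49 to 11.1 FPKM, most of them Krt14, and Epcam at 0. Krt5 (means of 0.0128 and 0.512 FPKM), Cdh1 (0.0825 and 0.216 FPKM) and Krt8 (0.00765 and 0.0469 FPKM) were below the minimum, with every Msx1 library above every control library. For Krt8 the margin was narrow, between 0.023 and 0.0242 FPKM. How often groups are apart among all genes below the minimum was not determined, so these endothelial and epithelial separations carry no weight. Krt18 and Cldn4 were at most 0.068 FPKM, with overlapping groups. The part of other cell types in the results above was not tested. In bulk RNA a change in the share of cells that express a gene and a change in RNA per cell cannot be told apart.

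For the called genes that changed by at least 1, the 3 tested genes with the nearest profile over the 6 libraries were found by the Euclidean distance between centred log2(FPKM + 1) values. For Alpl these were Stra6 (distance 0.535), Dpt (0.61) and Psca (0.701), all under 0.6 FPKM in each control library and above 31 FPKM in each Msx1 library. Their control means of 0.314, 0.436 and 0.189 FPKM were below 0.5 FPKM, so they reached the minimum for testing through the Msx1 libraries alone. For Spp1 they were Matn2 (0.175), Idi1 (0.183) and Brinp3 (0.184), and for Enpp1 Clmp (0.12), Dchs2 (0.12) and Zfpm2 (0.126). The distances around Enpp1 and Spp1 were smaller than those around Alpl, and since 2 groups dominate such profiles the measure mainly ranks genes by size and direction of change.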

How the data were processed

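RNA from 3 control and 3 Msx1 C2C12 samples was isolated with Trizol and made into libraries with a NEBNext Ultra kit, per the labels' protocols. The authors deposited 1 table of FPKM per RefSeq transcript and sample. Trimmomatic, HISAT2 and StringTie with GRCm38 (mm10) are named per the submitters' processing notes, while versions, settings and any use of strand are not stated there. Control columns, headed vector, were matched to control samples by number.

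Of 38468 transcripts, 38188 received a symbol from the RefSeq table (GRCm38.p6) and 161 from GENCODE, and 119 kept their identifiers. FPKM were summed per gene and tested in limma 3.58.1 under R 4.3.3, after adding 1 and taking log2, with the trend option and only for genes whose mean reached 0.5 FPKM. FPKM are relative to the library total. Whole reads were not recovered: depth is a rough estimate from the best-matching step between 10 and 30 M fragments, where 34.1% to 38.5% of the lowest values came within 0.1 of whole fragments. The fit was tested on simulated data, and 17 alternatives were tried, with the summing of the Bglap copies added after seeing the data. Named genes were the 10 genes, Msx1, up to 5 called genes with the largest change from each pathway list, Runx2, Dlx5, Col1a1, Ank, Col2a1 and Acan, and the nearest profiles; cell type markers, Col1a2, Col5a2 and Abi3, Bglap2 and Bglap3 were added for the checks that name them. List entries (Ankh, Lect1, Tmem55b) had no row under that symbol. The genes and lists were chosen with earlier results of these data known. Promoter motifs were searched in 300 bases (250 before and 50 after a start), and only the bases before the start are printed.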

Additional observations from a re-analysis of the deposited data

How the results depend on the processing

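The results for the 6 tested genes and the list counts were refitted under 17 alternatives (pseudocounts of 0.1 and 0.5, no filter or a mean of at least 1 FPKM, 3 scalings, the most abundant transcript of each gene, sample weights, no intensity trend, a replicate block and each library left out). Sp7, Sox5 and Sox6 had a value only with no filter on low values, and Ibsp had none. Alpl, Phospho1, Bglap, Spp1 and Enpp1 kept direction and call in all 17. The log2 change of Alpl ranged from 5.18 to 6.53, of Phospho1 from 0.68 to 0.86, of Spp1 from -1.48 to -1.09 and of Enpp1 from -1.55 to -1.08. Bglap ranged from 0.29 to 0.57 (limma adjusted p from 0.00417 to 0.0499, the highest without Msx1 replicate 3) and lost its call when its copies were summed (0.03). Sox9 was not called in any, with changes from -8.01e-04 to 0.14. With no filter on low values 8 bone genes and 14 cartilage genes were lower, since more genes were tested, and Sox5 was called. With sample weights 8 bone genes and 1 other Sox gene were lower. With a mean of at least 1 FPKM, 1 other Sox gene was higher, since fewer were tested.

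Replicate numbers are shared by the groups in the labels. Deviations of same-numbered libraries correlated at 0.0553, 0.226 and 0.0366, and the value for replicate 2 was the highest of all pairs. Control replicate 1 correlated best with Msx1 replicate 3 (0.133). With so few libraries these values cannot decide whether same-numbered libraries were handled together. A replicate block lowered the SE of each called gene, for Spp1 from 0.117 to 0.0674, but not that of Sox9. With the replicate block 3 of the 10 genes were called higher and 2 lower, and over all genes tested 2692 were higher and 4055 lower, against 2718 and 4014 without it. Fragment numbers per gene were not recovered, so the counting error of Sp7, Sox5 and Sox6, all below 0.6 FPKM, is not known.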

Other observations

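Some listed genes below the minimum for testing also had groups that did not overlap. Those given here were chosen after their values were seen and carry no test. Other listed genes below the minimum, such as Dmp1 and Twist1, did not overlap either. The share of such genes among all genes below the minimum was not determined. Sox7 read 0.0135, 0 and 0.0257 FPKM in control and 0.882, 0.638 and 0.643 FPKM in Msx1 libraries. Prg4, which encodes the joint lubricant lubricin, read 0.507, 0.355 and 0.735 FPKM in control and 0.0397, 0.108 and 0.092 FPKM in Msx1 libraries. Susd5 read 0.485, 0.525 and 0.527 FPKM in control and 0.028, 0 and 0.0207 FPKM in Msx1 libraries.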
